A study of Mus musculus with 12 samples.

Results

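The genes that carry newly made proteins into the endoplasmic reticulum (ER) and on to the Golgi were examined in mouse lacrimal glands, which make the watery part of tears. Members were chosen by a rule on gene names, set with earlier results of these data known. They were subunits of the signal recognition particle (SRP), the Sec61 translocon and its partners, signal peptidase, oligosaccharyltransferase, and the COPII and COPI coats. The Sec22 genes, the p24 (Tmed) family, the KDEL receptors and Lman1 were members as well. The rule found 70 of the 11736 genes listed, and 69 of the 70 had at least 1 FPKM in at least 3 of 12 libraries and were tested. FPKM, the unit throughout, expresses sequenced fragments relative to transcript length and to the size of the library. Sec31b, with a mean of 0.693 FPKM over the 12 libraries, was below that level and was not tested.

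RNA came from 4 groups of 3 libraries each: control glands, glands labelled ESS, and glands of NOD (non-obese diabetic) mice aged 8 and 12 weeks. The study's title speaks of a Sjögren's syndrome model raised with a lacrimal autoantigen, and its design text has LGSS where the labels have ESS, so ESS was taken as that model. In Sjögren's syndrome the immune system attacks tear and salivary glands, and NOD mice are an inbred strain prone to autoimmunity. The labels name no allele or agent for any group, no strain or age for control and ESS mice, and no sex. Effects of strain, age and sex thus cannot be told apart from those of the groups. Whether libraries are separate animals is not stated either, and p-values here measure the spread among these samples, which may be technical.

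Proteins bound for secretion carry a signal sequence that SRP recognises as it leaves the ribosome. SRP docks at its receptor on the ER, and the chain passes through the Sec61 channel while signal peptidase removes the signal and oligosaccharyltransferase adds sugar chains. COPII vesicles then carry cargo from the ER to the Golgi, and COPI vesicles bring escaped ER proteins back, with p24 proteins and KDEL receptors selecting cargo. Acinar cells of the lacrimal gland secrete protein in bulk and depend on this route.

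The libraries had the markers of their labelled tissue, with summed values of 12 of 12 listed acinar markers at 8620 to 11000 FPKM in control, 13000 to 14600 in ESS, 13700 to 14900 in NOD at 8 weeks and 13500 to 13700 in NOD at 12 weeks. ESS libraries 1 and 2 stood apart by salivary gland transcripts, whose summed value reached 13900 FPKM in ESS, against 31.7 FPKM in ESS library 3. Summed markers of plasma cells, another secretory cell type, were 54.3 to 58.2 FPKM in control, 59.3 to 72.5 in ESS, 90.7 to 111 in NOD at 8 weeks and 118 to 145 in NOD at 12 weeks, over 8 of 13 markers listed. Summed macrophage markers went the other way, from 108 to 182 FPKM in control to 58.8 to 65.4 and 62.7 to 90.3 in NOD at 8 and 12 weeks (8 of 8 listed). Not every marker of these cell types followed its sum. In bulk glands, fewer cells of a type and less RNA per cell cannot be told apart. Read numbers are not stated. Relative depth, read from the steps between low values, ranged from 0.783 (NOD library 2 at 8 weeks) to 1.13 of the mean. This estimate is rough: 42.6% to 54.7% of the low values of a library lay near a whole number of steps.

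Sequence matters first for 4 members that have a near copy in the mouse genome, because reads from copies can be assigned to either. The 3 Srp54 genes, which encode the signal-binding subunit of SRP, lie together on chromosome 12 of GRCm38. The files name 2 of them Srp54a (ENSMUSG00000073079.6 and ENSMUSG00000112449.1) and the third Srp54b (ENSMUSG00000079108.6), while GENCODE M21 calls the last 2 of these Srp54b and Srp54c. Their transcripts are 99.5% to 99.7% identical, and their coding sequences, each 1515 bases, differ at 6 positions. Bases 906 to 965 of the coding sequence hold 3 of those positions, shown in capitals, to let the copies be compared.
ENSMUSG00000073079.6: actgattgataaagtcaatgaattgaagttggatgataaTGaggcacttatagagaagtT
ENSMUSG00000112449.1: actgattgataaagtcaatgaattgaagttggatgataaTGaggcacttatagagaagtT
ENSMUSG00000079108.6: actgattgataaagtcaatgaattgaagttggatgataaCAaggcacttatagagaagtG
In this stretch both genes named Srp54a are identical and the third differs from them. The other member with copies is Sec61b, whose transcript is 98.3% identical to Gm10320 over 84% of its length and 95.7% identical to the pseudogene Gm5870 over 50%. Values of these 4 members are uncertain to that extent.

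Promoters were searched for 3 DNA elements through which the ER stress response is known to act, in the 250 bases before the RefSeq start (GRCm38.p6) and on both strands. TGACGTGG, an element bound by the ATF6, XBP1 and CREB3-like factors, was in 4 of 58 members with a promoter sequence (6.9%), against 0.855% of the 9118 genes of the deposited table that had one. The 4 promoters are shown as the 60 bases before the start, on the strand of the gene, with the element in capitals (read on the opposite strand in Kdelr3 and Copb1).
Kdelr3, chr15:79516348-79516407, plus strand: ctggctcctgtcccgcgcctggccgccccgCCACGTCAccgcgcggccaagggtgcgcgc
Sec16b, chr1:157506736-157506795, plus strand: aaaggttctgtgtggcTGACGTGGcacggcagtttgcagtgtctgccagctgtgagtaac
Copb1, chr7:114254681-114254740, minus strand: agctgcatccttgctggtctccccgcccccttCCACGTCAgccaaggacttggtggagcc
Sec24d, chr3:123267436-123267495, plus strand: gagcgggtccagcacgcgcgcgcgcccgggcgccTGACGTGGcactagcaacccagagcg
The element began 30 bases before the start in Kdelr3, 44 in Sec16b, 28 in Copb1 and 26 in Sec24d. These distances hold for the RefSeq start. As deposited, Sec16b begins at 157506728, Sec24d at 123267455 and Copb1, on the minus strand, at 114254711. Measured from those positions the element lies inside these genes, and only in Kdelr3 (79516408) does it lie before the gene. The ER stress response elements ERSE (CCAAT, any 9 bases, CCACG) and ERSE-II (ATTGG, any base, CCACG) were in 0 of 58 members, and in 0.186% and 0.0658% of the genes of the table. A match is a string of letters and not a site shown to be bound. The 4 genes did not move as a group: in NOD against control glands Kdelr3 rose and Sec16b fell at both ages (Sec16b at 12 weeks under none of the 3 scalings described further on), and Copb1 and Sec24d did not pass the test.

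Most members were abundant. The median of their mean values was 35.1 FPKM, against 3.93 FPKM for all listed genes, 63 of the 70 lay above that all-gene median, and 57 had a mean of at least 10 FPKM. The highest was Tram1, which guides chains at the channel, with 270 FPKM. Within SRP and its receptor the order ran from Srpr, the receptor subunit that docks SRP, with 177 FPKM, down to Srp19, which helps assemble the particle, with 14.4 FPKM. In the translocon, Sec61b had 198 FPKM and Sec61a1, the pore subunit, 83.1 FPKM, while its paralog Sec61a2 had 1.78 FPKM. The TRAP complex, which assists the channel, ran from Ssr2 (151 FPKM) to Ssr1 (22.7 FPKM), and oligosaccharyltransferase from Ddost (151 FPKM) to the catalytic subunit Stt3a (26.4 FPKM). The signal peptidase ran from the catalytic subunit Sec11c (114 FPKM) to its paralog Sec11a (16.7 FPKM). Among the vesicle genes COPII ran from Sar1b, the GTPase that starts the coat (93.7 FPKM), to the untested Sec31b, COPI from Copz1 (64.1 FPKM) to Copg2 (9.55 FPKM), the Sec22 genes from Sec22b (21.8 FPKM) to Sec22c (2.23 FPKM), and the cargo receptors from Tmed3 (143 FPKM) to Tmed8 (1.52 FPKM).

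**Figure D1:**
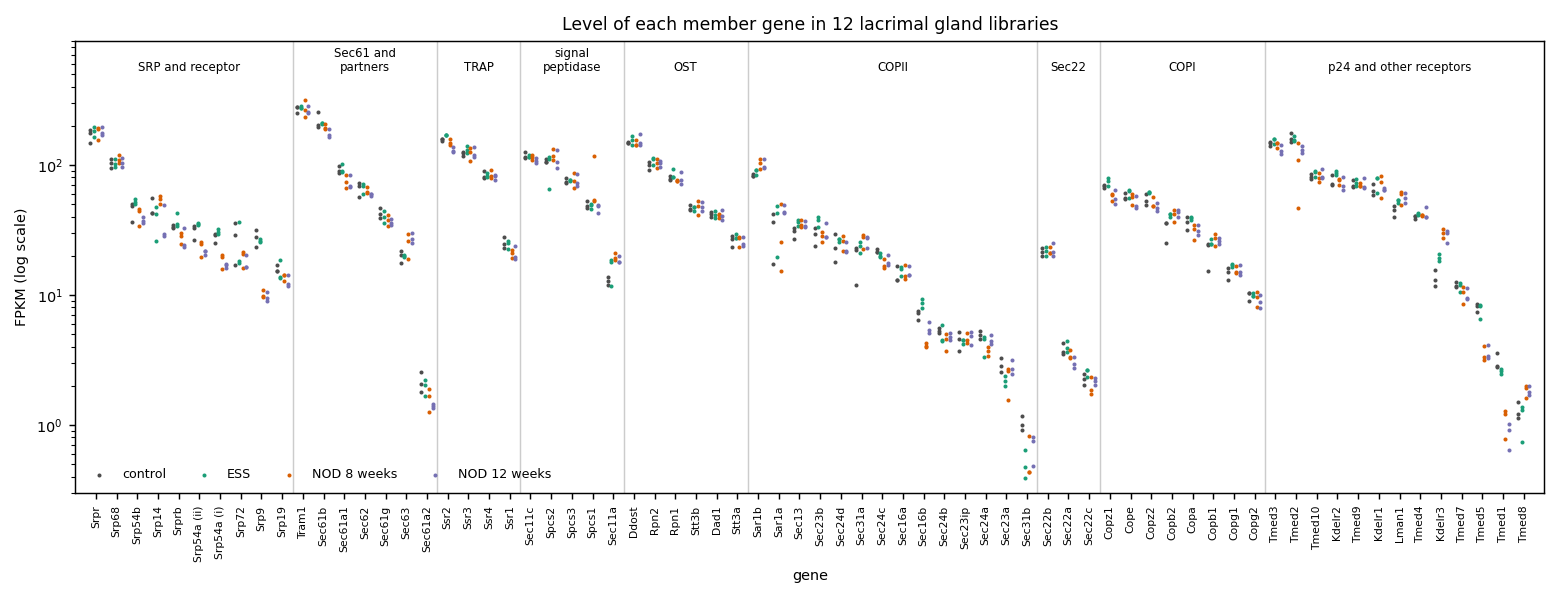
FPKM of each of the 70 members (log axis) in the 12 libraries, grouped by role and ordered by mean level within a role; each point is a library, coloured by group, with Srp54a (i) and (ii) for ENSMUSG00000073079.6 and ENSMUSG00000112449.1. Tram1 is highest and the untested Sec31b lowest, and the NOD points of Srp9, Tmed5 and Tmed1 lie below, those of Kdelr3 above, all control and ESS points.

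Summed over all 70 members, the libraries held 3700 to 3800 FPKM in control, 3790 to 4000 in ESS, 3550 to 3920 in NOD at 8 weeks and 3390 to 3890 in NOD at 12 weeks, and the NOD and control sums overlapped. As a share of all listed FPKM this was 0.557% to 0.613% in control, 0.542% to 0.629% in ESS, 0.437% to 0.552% in NOD at 8 weeks and 0.419% to 0.539% in NOD at 12 weeks. The NOD shares lay below the control range, and the total they are shares of was larger in NOD (710000 to 814000 FPKM over all listed genes, against 621000 to 667000 in control). By role, the SRP genes summed to 495 to 545 FPKM in control, 505 to 560 in ESS, 456 to 529 in NOD at 8 weeks and 427 to 492 at 12 weeks, so NOD at 12 weeks lay below control and the other groups overlapped it. Those of the COPI coat summed to 279 to 303 FPKM in control, 317 to 338 in ESS, 279 to 298 in NOD at 8 weeks and 261 to 307 at 12 weeks, with ESS above control and NOD overlapping it. COPII genes summed to 262 to 287 FPKM in control, 296 to 322 in ESS and 298 to 347 in NOD at 12 weeks. Both lay above control, and NOD at 8 weeks (272 to 340) overlapped it. Signal peptidase genes had 378 to 443 FPKM in NOD at 8 weeks, above 356 to 369 in control. TRAP genes had 397 to 422 FPKM in ESS, above 379 to 391 in control. All other sums by role overlapped control. For most members the spread between libraries was small: 4 members (5.8%) had a within-group ratio of the highest to the lowest library of at least 2, against 19.1% of all tested genes. They were Sar1a, Tmed2, Spcs1 and Srp72. Members were more abundant than most genes, and the part of level in this share was not tested.

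Some libraries held the extremes more often than others. Control library 3 was the lowest of the 12 in 15 of the 70 members, or 21.4%, against 10.4% of all tested genes. It had the lowest value of Sec31a, the outer COPII cage (11.8 FPKM, against 22 and 22.9 FPKM in control libraries 1 and 2), and of Copb1, a COPI subunit (15.3 against 24.3 and 24.5 FPKM). NOD library 3 at 8 weeks was the lowest in 19 members, or 27.1%, near the 25.7% of all tested genes.

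Changes are given on the log2(FPKM + 1) scale, which understates those of low genes, and relative to the median of all genes tested. That median was -0.15 in NOD at 8 weeks and -0.18 at 12 weeks against control, and it moved by 0.11 to 0.19 with the scaling chosen. A gene was called risen or fallen where its change before that subtraction had a Benjamini-Hochberg adjusted p under 0.05 in limma's moderated test over 10325 genes. The 3 comparisons against control share the control libraries, as those with ESS or NOD share theirs.

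In ESS against control glands 0 members rose and 0 fell, where 0.0678% of all genes rose and 0.0969% fell. An unadjusted p under 0.05 was reached by 6 members, all higher in ESS, and by 12.1% of all genes. Kdelr3, a receptor that returns ER proteins from the Golgi, was the nearest to a call: it had 20.7, 18.2 and 19.3 FPKM in ESS and 11.7, 15.4 and 12.9 FPKM in control. The groups did not overlap, and the change was 0.58 (SE 0.11, limma adjusted p = 0.0985). It passed the test when control library 2 was left out. The other 5 were Copb2 (0.43), Sec23b (0.42), Lman1 (0.31), Sec16b (0.32) and Sec13 (0.30), with limma adjusted p from 0.279 to 0.382. By size, 57 of the 69 tested members lay above and 12 below the median of all genes, with a median of 0.12 and a middle range of 0.04 to 0.21, against -0.11 to 0.11 for all genes. The COPI genes had the highest median of any role, 0.22, and the signal peptidase genes the lowest, 0.04. With ESS library 3 as the lone ESS library the members' median was 0.109.

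In NOD against control glands a few members changed clearly while most stayed near the median of all genes. At 8 weeks 4 members rose and 7 fell, 5.8% and 10.1% of the 69, where 5.3% and 22.1% of all genes did. At 12 weeks 6 rose and 11 fell, 8.7% and 15.9%, where 5.52% and 27.8% of all genes did. Before any rescaling, the share that rose was near the background at 8 weeks and somewhat above it at 12 weeks, and the share that fell was below it at both. The split depended on the scaling: at 8 weeks quantile normalization gave 10 rises and 5 falls, centring of the library medians 12 and 5, and a rescaling that leaves out the most abundant genes 11 and 5. At 12 weeks the same settings gave 14 and 5, 15 and 5, and 18 and 5. The rises were then 14.5%, 17.4% and 15.9% of members at 8 weeks, against 11%, 12.3% and 8.96% of all genes, and 20.3%, 21.7% and 26.1% at 12 weeks, against 12.6%, 12.7% and 11.7%. The falls were 7.25% of members in each case, against 12.3%, 11.1% and 14.3% of all genes at 8 weeks and 13%, 12% and 12.9% at 12 weeks. The share of members that rose was thus above that of all genes under each of these scalings. Members were more abundant than most genes (median 35.1 against 3.93 FPKM), and the part of level in these shares was not tested. The median change of the members was 0.11 at 8 and 0.14 at 12 weeks, and 59 of 69 lay within 0.5 of the median of all genes at each age (85.5%, against 83.5% and 82.9% of all genes).

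**Figure D2:**
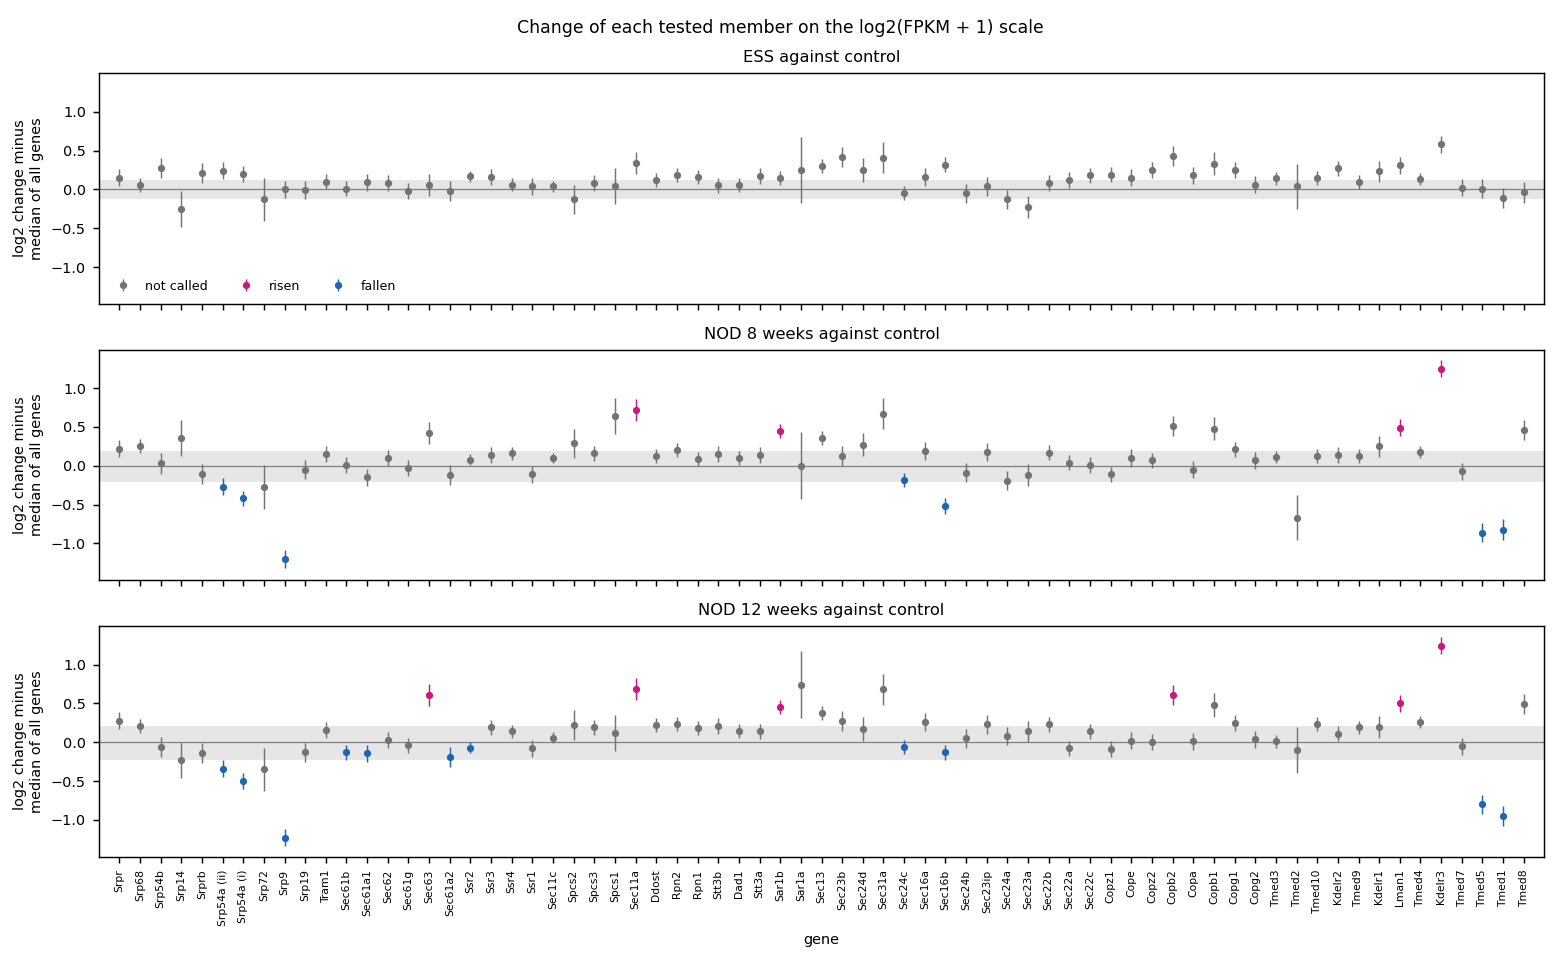
Change of each tested member against control in ESS, NOD at 8 weeks and NOD at 12 weeks, as the log2 change minus the median of all genes; bars are the standard error, the grey band spans the quartiles of all genes, and colour marks limma calls. No member is called in ESS; in NOD, Kdelr3 stands highest (1.25 and 1.24) and Srp9 lowest (-1.20 and -1.23) at both ages.

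Among the SRP genes, Srp9 fell furthest of all members. Srp9 forms, with Srp14, the part of the particle that slows translation, and lies on chromosome 1 of GRCm38 from 182124737 to 182132407. It had 23.2, 27.6 and 31.4 FPKM in control, 26.1, 25.4 and 26.9 in ESS, 9.88, 9.58 and 10.8 in NOD at 8 weeks and 10.5, 9.39 and 8.92 in NOD at 12 weeks. Every NOD library lay below every control and ESS library. The change was -1.20 at 8 weeks (SE 0.11, limma adjusted p = 4.18e-06) and -1.23 at 12 weeks (SE 0.11, limma adjusted p = 2.87e-06). Its partner Srp14 did not pass, with 54.2 ± 3.85 FPKM at 8 weeks and 35.8 ± 11.8 at 12 weeks against 46.9 ± 7.58 in control (SD, n = 3).

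Both genes named Srp54a fell too. ENSMUSG00000073079.6 had 28.8, 29.4 and 24.9 FPKM in control, 19.4, 20.1 and 15.9 in NOD at 8 weeks and 17.3, 17.1 and 16.1 at 12 weeks. The groups did not overlap, with changes of -0.42 and -0.50. ENSMUSG00000112449.1 had 31 ± 3.86 FPKM in control, 23.1 ± 3.23 at 8 weeks and 21.2 ± 0.996 at 12 weeks (SD, n = 3), with changes of -0.27 and -0.34. Its NOD libraries also lay below all control libraries, though closely (up to 25.4 FPKM, against 26.6 in control library 3). Its call at 8 weeks ended under all 3 scalings and without control library 1 or 2 or NOD library 3. The third copy, named Srp54b, did not pass against control, with 44.9 ± 7.48 FPKM in control and 41.5 ± 6.57 and 37.3 ± 2.10 in NOD at 8 and 12 weeks. How reads were divided among the 3 copies is not stated.

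Of the 7 translocon genes, 0 passed at 8 weeks, where 5.3% of all genes rose and 22.1% fell. At 12 weeks 1 rose and 3 fell, where 5.52% and 27.8% of all genes did. Sec63, which works with Sec62 on chains that enter after translation, rose at 12 weeks with 29.8, 24.9 and 26.7 FPKM against 20.3, 21.9 and 17.7 in control. The groups did not overlap, and the change was 0.61 (SE 0.14, limma adjusted p = 0.0392). The table of transcripts went against it: its only listed transcript, Sec63-201, had 25.5, 34.9 and 23.2 FPKM at 12 weeks and 29, 31 and 25.2 in control, and with transcript values summed the change before subtraction was -0.04. The call also ended without control library 1 or 3, ESS library 2 or 3, or any 1 NOD library of that age. Sec61a1 fell at 12 weeks from 91.3 ± 5.72 to 73.0 ± 8.70 FPKM (change -0.14), Sec61b from 217 ± 32.3 to 173 ± 12.0 (change -0.13) and Sec61a2 from 2.14 ± 0.399 to 1.40 ± 0.0508 (change -0.19). These 3 calls ended under each of the 3 scalings and without NOD library 2 or 3, as did that of Ssr2 of the TRAP complex, which fell from 156 ± 2.71 to 130 ± 6.67 FPKM (change -0.07). Sec61a1 was also not called without control library 1 or 2, Sec61b without control library 3, and Sec61a2 without control library 2 or 3, ESS library 3 or NOD library 1. The 6 oligosaccharyltransferase genes passed in neither direction at either age, with changes between 0.09 and 0.23. Ddost had 147, 151 and 146 FPKM in control and 172, 146 and 141 at 12 weeks, and those ranges overlapped.

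Signal peptidase has alternative catalytic subunits, and the less abundant one rose. Sec11a had 11.9, 13.6 and 12.7 FPKM in control, 17.9, 11.6 and 18.4 in ESS, 20.9, 18.4 and 19.1 in NOD at 8 weeks and 19.9, 17.8 and 17.9 at 12 weeks. All NOD libraries lay above all control libraries, while ESS library 2 lay below them. The change was 0.72 at 8 weeks (SE 0.14, limma adjusted p = 0.0124) and 0.69 at 12 weeks (SE 0.14, limma adjusted p = 0.0190). The call at 12 weeks ended without control library 1 or NOD library 1. Sec11c had 117 ± 6.32 FPKM in control and 114 ± 4.79 and 108 ± 4.63 in NOD (SD, n = 3) and did not pass.

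In the COPII coat, Sar1b rose at both ages and Sec24c and Sec16b fell. Sar1b had 81.4, 82.4 and 84.8 FPKM in control, 93.0, 111 and 104 in NOD at 8 weeks and 111, 95.2 and 96.2 at 12 weeks. The groups did not overlap, with changes of 0.45 and 0.46, but the call at 8 weeks ended without control library 1 or 2 or NOD library 2 or 3, and that at 12 weeks without any 1 control library or NOD library 1 or 3. Sec16b, a paralog of the scaffold Sec16a that marks ER exit sites, had 6.41, 7.27 and 7.56 FPKM in control, 9.33, 8.72 and 7.98 in ESS, 3.98, 4.25 and 4.06 in NOD at 8 weeks and 6.15, 5.33 and 5.10 at 12 weeks. It was lowest at 8 weeks, where the change was -0.52 (SE 0.10, limma adjusted p = 0.000453), and its smaller fall at 12 weeks (-0.13) was not called under any of the 3 scalings, or without control library 2 or 3 or NOD library 2 or 3. The calls of Sec24c, a cargo adaptor of the coat (-0.18 and -0.06), ended under the same scalings. The call at 8 weeks also ended without control library 2 or NOD library 2 or 3, and that at 12 weeks in 17 of 23 alternatives, among them a pseudocount of 0.1, no filter, and any 1 control or ESS library left out. Sec31a had 26.6 ± 3.49 and 26.1 ± 2.72 FPKM in NOD against 18.9 ± 6.18 in control, and did not pass (limma adjusted p = 0.0805 and 0.0826).

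The 3 Sec22 genes did not pass in NOD against control. In the COPI coat, Copb2 rose at 12 weeks, with 45.2, 43.4 and 40 FPKM against 35.8, 35.6 and 24.9 in control. The groups did not overlap, the change was 0.61 (SE 0.13, limma adjusted p = 0.0279), and the call ended without control library 3 or NOD library 1 or 2. The other 7 COPI genes did not pass at either age.

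The cargo receptors held both the largest rise and 2 of the 3 largest falls. Kdelr3, on chromosome 15 from 79516408 to 79527739, had 27.3, 31.9 and 29.7 FPKM in NOD at 8 weeks and 30.8, 25.1 and 30.1 at 12 weeks, against the control values of 11.7 to 15.4 given above. NOD libraries lay above all ESS libraries, and ESS libraries above all control libraries. The change was 1.25 at 8 weeks (SE 0.11, limma adjusted p = 3.67e-05) and 1.24 at 12 weeks (SE 0.11, limma adjusted p = 4.91e-05). The other KDEL receptors did not pass: Kdelr2 had 75.1 ± 7.12 FPKM in control and 74.6 ± 4.13 and 71.3 ± 8.33 in NOD, and Kdelr1 had 64.3 ± 6.07, 70.1 ± 13.5 and 64.7 ± 0.978. Lman1, a lectin that carries glycoproteins out of the ER, rose at both ages, from 44.4 ± 4.19 to 56.9 ± 6.91 and 55.5 ± 5.27 FPKM (changes 0.49 and 0.50), but both calls ended without control library 1 or 3. The call at 8 weeks also ended without NOD library 1 or 2 of that age, and that at 12 weeks without any 1 ESS library, NOD library 1 at 8 weeks, or NOD library 1 or 2 at 12 weeks.

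Of the p24 family, Tmed5 and Tmed1 fell at both ages. Tmed5 had 7.37, 8.48 and 8.22 FPKM in control, 6.55, 8.27 and 8.36 in ESS, 3.14, 4.01 and 3.34 in NOD at 8 weeks and 4.11, 3.36 and 3.28 at 12 weeks. Tmed1 had 2.85, 2.79 and 3.55 FPKM in control, 2.70, 2.47 and 2.61 in ESS, 1.22, 0.772 and 1.28 at 8 weeks and 0.919, 0.640 and 1.01 at 12 weeks. In both genes every NOD library lay below every control and ESS library. Tmed5 changed by -0.86 and -0.80 (SE 0.12, limma adjusted p = 0.0001 and 0.000116), and Tmed1 by -0.82 and -0.95 (SE 0.13, limma adjusted p = 0.000211 and 5.93e-05). The abundant members of the family did not pass: Tmed10, which pairs with Tmed2 in the vesicle coat, had 80.9 ± 3.96 FPKM in control and 79.9 ± 6.51 and 84.2 ± 7.47 in NOD. Tmed2 had 149, 158 and 175 FPKM in control and 46.9, 146 and 108 in NOD at 8 weeks, the low value being that of library 1.

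**Figure D3:**
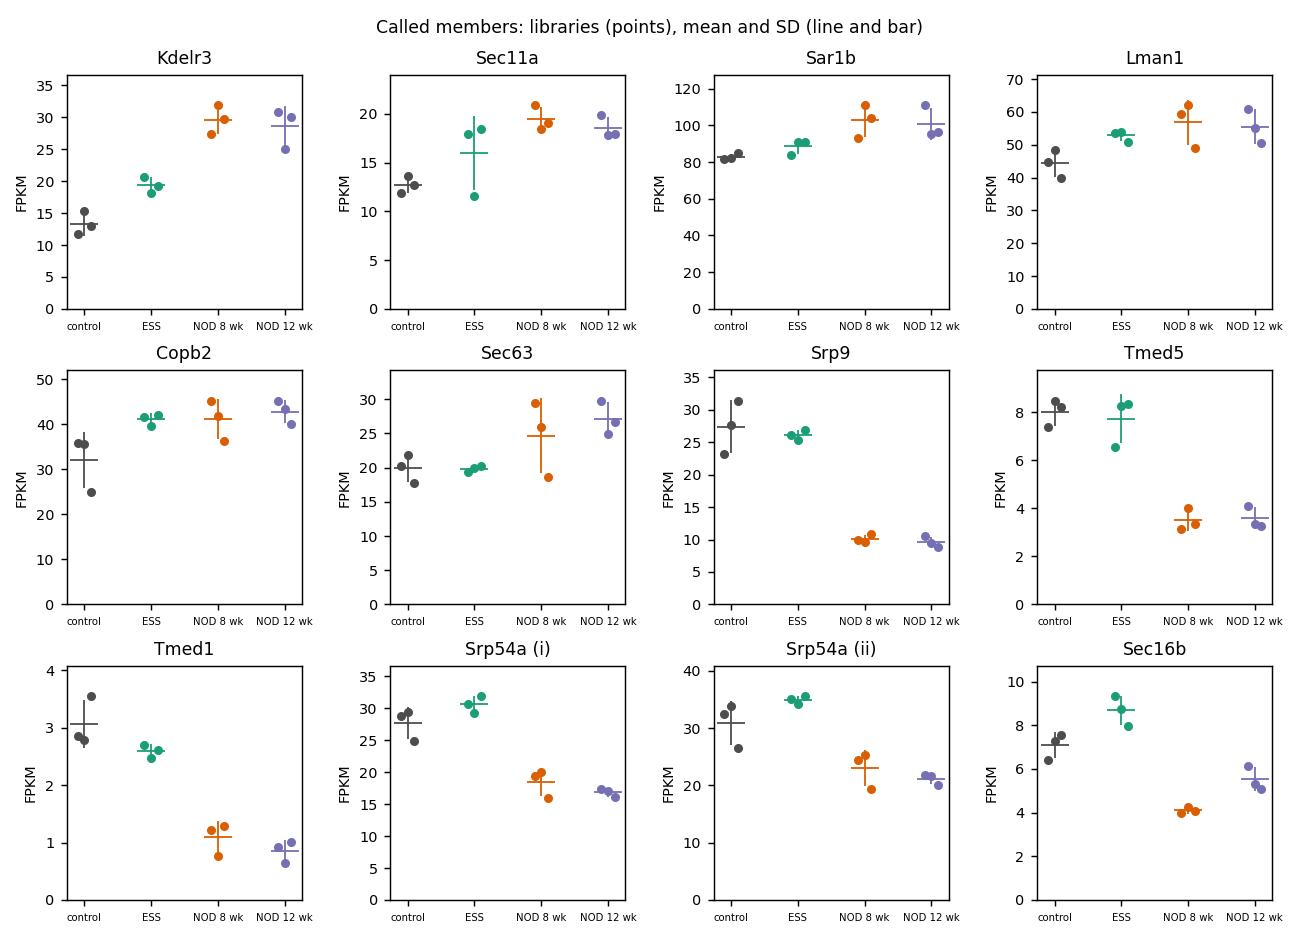
FPKM of 12 members called in NOD against control, with each library as a point and the mean and SD of 3 libraries as a line and bar; axes start at 0. Srp54a (i) is ENSMUSG00000073079.6 and Srp54a (ii) is ENSMUSG00000112449.1. NOD points of Srp9, Tmed5, Tmed1, Srp54a (i), Srp54a (ii) and Sec16b lie below all control and ESS points, and those of Kdelr3 and Sar1b above them.

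The calls of Kdelr3, Srp9, Tmed1, Tmed5 and Srp54a (ENSMUSG00000073079.6) held at both ages in every alternative that could test them, as did those of Sec11a and Sec16b at 8 weeks and of ENSMUSG00000112449.1 at 12 weeks. The summed markers of plasma cells were higher, and those of macrophages lower, in the same NOD libraries. Jchain, the plasma cell gene that joins secreted antibodies, had 1.71 to 2.73 FPKM in control, 12.9 to 16.3 in ESS, 23.9 to 36.6 in NOD at 8 weeks and 52.2 to 66.1 at 12 weeks. Other markers did not follow the sums. Sdc1, a plasma cell marker, had 5.76 to 7.34 FPKM in control and 5.29 to 7.08 and 5.41 to 5.68 in NOD at 8 and 12 weeks. Prdm1, another, had 0.476 to 0.911 FPKM in control and 0.492 to 0.641 and 0.361 to 0.590 in NOD. The macrophage marker Mrc1 had 1.26 to 2.50 FPKM in control and 1.73 to 2.08 and 1.58 to 2.36 in NOD. The part of these cell types in the changes of the members was not tested.

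Between NOD at 12 and 8 weeks 0 members rose and 0 fell, where 0.0775% and 0.0484% of all genes did. An unadjusted p under 0.05 was reached by 4 members and by 9.05% of all genes. Sec16b, the nearest to a call, was higher at 12 weeks without overlap (change 0.38, SE 0.10, limma adjusted p = 0.270), and the others, Ssr2 (-0.17), Srp14 (-0.60) and Spcs1 (-0.53), were lower. Spcs1 had 53.0, 53.8 and 116 FPKM at 8 weeks and 49.1, 42.8 and 48.6 at 12 weeks, so its difference rests mostly on library 3 at 8 weeks.

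ESS glands were also set against NOD glands, and these comparisons share the NOD libraries with those above. Against NOD at 8 weeks, 7 members were higher and 2 lower in ESS (10.1% and 2.9%, where 11.3% and 3.94% of all genes were). Against NOD at 12 weeks, 14 were higher and 2 lower (20.3% and 2.9%, where 16.2% and 4.44% were). Srp9, Sec16b, Tmed5, Tmed1, both genes named Srp54a and Copz1 were higher at each age, and Kdelr3 and Tmed8 were lower. The difference of Srp9 was 1.20 and 1.24, that of Sec16b 0.83 and 0.45, and that of Tmed5 0.87 and 0.80, against NOD at 8 and 12 weeks. Kdelr3 was lower in ESS by -0.67 and -0.66 (limma adjusted p = 0.00458 and 0.00678). Tmed8, a low-level member, had 1.30, 1.38 and 0.741 FPKM in ESS against 1.92, 1.98 and 1.62 in NOD at 8 weeks and 1.70, 1.98 and 1.78 at 12 weeks. The other 7 higher at 12 weeks were Ssr2, Copz2, Srprb, Srp54b, Sec61a1, Tmed3 and Sec22a, with differences of 0.13 to 0.35, and all but Srp54b were called under none of the 3 scalings. The Tmed8 calls ended without ESS library 1 or 3, among other libraries, and those of Copz1 without ESS library 1, among others. With ESS library 3 as the lone ESS library, Kdelr3 and Copz1 were called at neither age, ENSMUSG00000112449.1 not at 8 weeks, and Sec16b and those 7 members not at 12 weeks. Copz1, a COPI subunit, had 79.8, 75.2 and 69.3 FPKM in ESS and 52.3, 60 and 58.9 in NOD at 8 weeks, and library 3 was the lowest of the ESS group.

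Values of single transcripts were compared next. Whether their differences lie in the form made or in how reads were divided among transcripts was not tested. Of 38 members with at least 2 listed transcripts, 8 changed their most abundant one between libraries (21.1%, against 60.9% of the 5101 genes with as many). Members were more abundant than most genes, and the part of level in this share was not tested. The 8 were Srp9, Srp68, Sec61a2, Sec61g, Spcs1, Spcs2, Sec16b and Sec31a. Some of these changes lay within a group: Srp68-202 had 77.2, 105 and 1.36 FPKM in the control libraries. Gene and transcript values are scaled to different lengths, so they are compared here only within a table. Srp9-201 had 92.1, 108 and 123 FPKM in control and 103, 101 and 106 in ESS, and 15.6, 30.1 and 41.5 in NOD at 8 weeks and 17.3, 36.1 and 12.8 at 12 weeks. Srp9-202 had 0.812 to 3.58 FPKM in control and ESS, 38.6, 11.3 and 1.74 in NOD at 8 weeks and 37.9, 0.502 and 36.9 at 12 weeks. The fall of Srp9-201 was thus seen in all NOD libraries, and high Srp9-202 in some of them.

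Among other transcripts, some differed by group and some by single libraries. Spcs2 encodes a subunit of signal peptidase, and its gene value lay between 94.6 and 132 FPKM in all libraries but ESS library 3 (64.7 FPKM). Spcs2-207 had 0.272 to 2.42 FPKM in control, 211, 0.543 and 4.92 in ESS, 267, 49.5 and 302 in NOD at 8 weeks and 297, 24.1 and 229 at 12 weeks. It was therefore high in ESS library 1 and in 4 of 6 NOD libraries, with the remaining NOD libraries between. Spcs1-206 had 78.1 FPKM in NOD library 3 at 8 weeks and no more than 0.176 FPKM in any other library, which is the library where the gene value of Spcs1 was 116 FPKM. Sec11a-202 was listed at 0 in all control and ESS libraries and had 4.49, 2.33 and 7.00 FPKM in NOD at 8 weeks and 4.21, 13.9 and 10.9 at 12 weeks, beside Sec11a-201, which had 26.5 to 56.8 FPKM in NOD. Sec31a-210 had 28.6 to 39.8 FPKM in NOD and 12.6 to 25.8 FPKM in control, and in ESS 30.7, 5.63 and 30.9 FPKM.

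**Figure D4:**
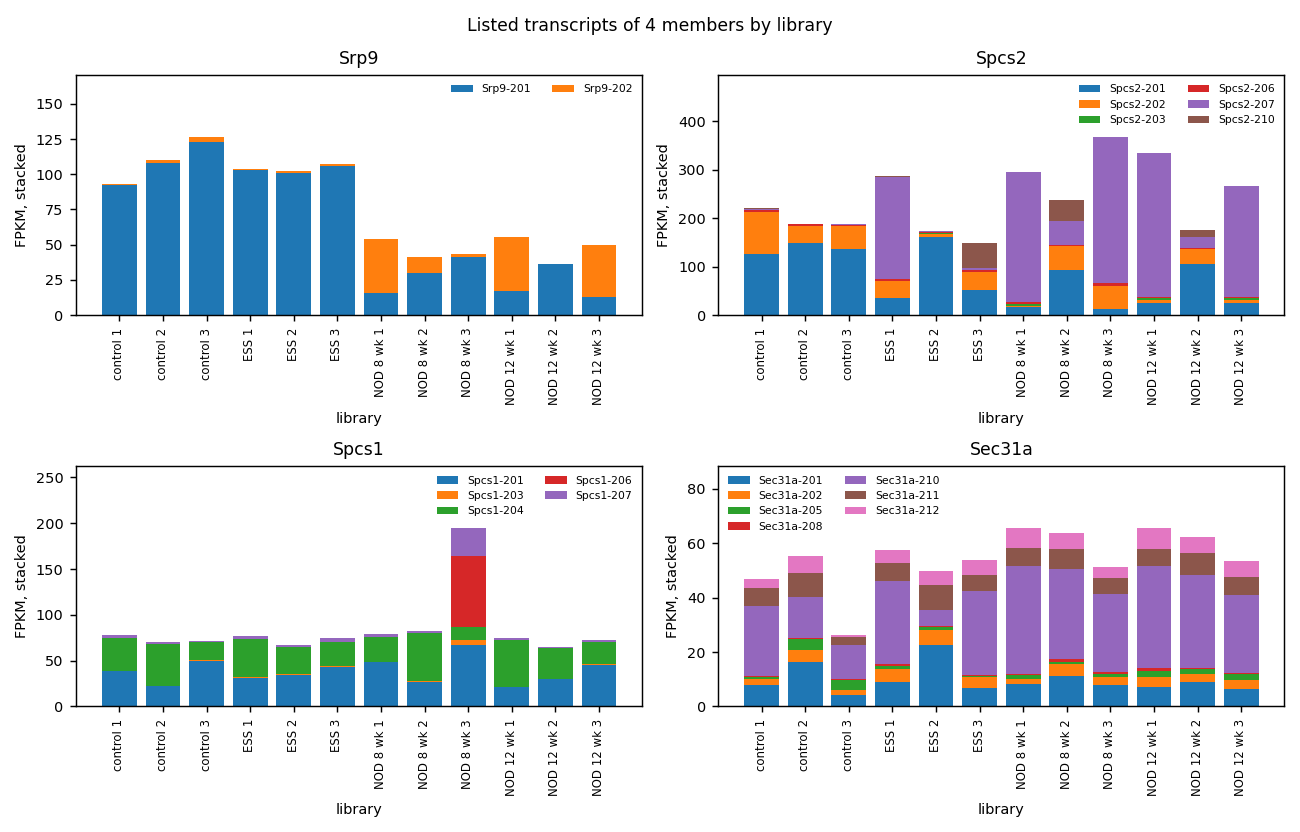
Stacked FPKM of the listed transcripts of Srp9, Spcs2, Spcs1 and Sec31a in each of the 12 libraries. Srp9-201 is shorter in all NOD libraries, Spcs2-207 is tall in ESS library 1 and 4 NOD libraries, and Spcs1-206 appears in NOD library 3 at 8 weeks.

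Within 12 pairs of related members the balance was compared as the log2 ratio of (FPKM + 1) per library, over 6 NOD and 3 control libraries, with a two-sided exact permutation test whose smallest p is 0.0238. The ratio of Kdelr3 to Kdelr2 was -2.49 to -2.36 in control and -1.36 to -1.17 in NOD, a difference of 1.12. The ratios of Sec11c to Sec11a and of Sec16b to Sec16a differed by -0.63 and -0.55, and that of the barely detected Sec31b to Sec31a by -0.83. These 4 pairs had the smallest p the exact test allows, 0.0238, and 0.0714 after adjustment over the 12 pairs, so none passed. At that smallest p a pair could pass the adjustment only if several more pairs reached it too. The test therefore could not decide on single pairs, however well separated. Pairs such as Sec61a1 and Sec61a2 (0.01), Stt3a and Stt3b (-0.04) and Kdelr2 and Kdelr1 (-0.10) had small differences. In ESS against control, where the smallest exact p is 0.1, no pair could pass.

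**Figure D5:**
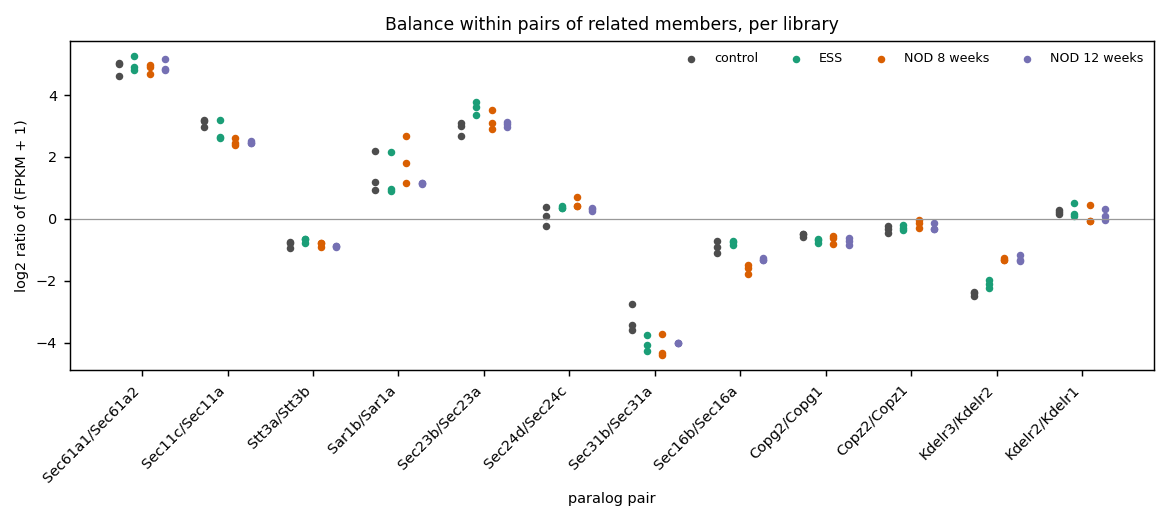
Log2 ratio of (FPKM + 1) within 12 pairs of related members, one point per library, coloured by group; the line at 0 marks equal levels. NOD points of Kdelr3/Kdelr2 lie above, and those of Sec11c/Sec11a and Sec16b/Sec16a below, all control points.

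Further genes of the same route were counted from 5 lists chosen with earlier results of these data known, and 0 of their members passed in ESS against control. Their shares in NOD are to be read against the 5.3% and 5.52% of all genes that rose and the 22.1% and 27.8% that fell at 8 and 12 weeks. Whether single calls in these lists held under the 3 scalings is not reported here. Some of the falls were small relative to the median of all genes. Of 17 accessory genes of the translocon and oligosaccharyltransferase, 2 rose and 3 fell in NOD at 8 weeks (11.8% and 17.6%) and 2 rose and 4 fell at 12 weeks (11.8% and 23.5%). Tusc3, an oxidoreductase subunit of oligosaccharyltransferase, rose from 3.23 ± 0.444 to 5.27 ± 0.555 and 4.72 ± 0.0749 FPKM, and Rrbp1, the ribosome-binding protein of the rough ER, from 55.0 ± 3.68 to 68.6 ± 5.04 and 70.9 ± 3.80 FPKM. Tmem147 and Ncln, parts of translocons for multipass proteins, fell, Tmem147 from 40.1 ± 8.17 to 23.8 ± 3.60 and 25.3 ± 2.36 FPKM. The changes were -0.58 and -0.45 for Tmem147 and -0.25 and -0.21 for Ncln. Of 16 genes of membrane insertion, 1 rose and 4 fell at 8 weeks (6.25% and 25%) and 0 rose and 5 fell at 12 weeks (31.2%), near the shares of all genes that fell. Emc3, a core subunit of the ER membrane complex, had 25.3, 25.2 and 30.2 FPKM in control, 17.8, 17.5 and 14.3 in NOD at 8 weeks and 16.9, 15.8 and 14.8 at 12 weeks, with changes of -0.53 and -0.54. Emc10, Emc6 and Sgta fell at both ages, Sgta by only -0.15 and -0.17, and the ranges of Emc3 in NOD and control did not overlap.

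Of 27 genes of ER exit sites, 1 rose and 7 fell at each age (3.7% and 25.9%), also near the shares of all genes. Creb3l2, itself a transcription factor, was among those that fell at each age and is counted again among the regulators below. Mia3, the receptor that exports collagen, rose from 55.4 ± 6.64 to 72.7 ± 5.52 and 69.4 ± 2.89 FPKM, and Cnih1, a cargo receptor, fell from 37.7 ± 6.26 to 24.5 ± 2.24 and 25.5 ± 1.44 FPKM. Mcfd2, the partner of Lman1, fell from 84.2 ± 6.72 to 64.7 ± 6.43 and 60.1 ± 7.16 FPKM while Lman1 rose. Of 36 COPI accessory genes and Golgi tethers, 3 rose and 1 fell at 8 weeks (8.33% and 2.78%) and 2 rose and 2 fell at 12 weeks (5.56% each), and the shares that fell were below those of all genes. The giant tether Golgb1 rose from 5.36 ± 0.698 to 7.77 ± 0.644 and 7.68 ± 0.926 FPKM. The last list held 11 regulators of the secretory pathway, which were transcription factors and the stress sensors Ern1 and Eif2ak3. Of these, 3 rose and 1 fell at 8 weeks (27.3% and 9.09%). At 12 weeks 2 rose and 1 fell (18.2% and 9.09%). Creb3l1 rose from 39.2 ± 5.54 to 49.9 ± 2.79 and 63.8 ± 4.79 FPKM (limma adjusted p = 0.0452 and 0.00107), and its relative Creb3l2 fell from 21.5 ± 0.344 to 16.1 ± 2.05 and 17.1 ± 1.41 FPKM. Ddit3 rose from 2.24 ± 0.574 to 3.89 ± 0.987 and 3.9 ± 0.356 FPKM (limma adjusted p = 0.0182 and 0.0133). Bhlha15 rose at 8 weeks alone, from 295 ± 23.6 to 351 ± 25 FPKM. Relative to the median of all genes the changes were 0.49 and 0.88 for Creb3l1, 0.74 and 0.79 for Ddit3, and -0.26 and -0.14 for Creb3l2. The medians of the 5 lists in NOD lay between -0.02 and 0.23, near that of all genes, which is 0 by construction.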

How the data were processed

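Lacrimal gland RNA was measured in 12 libraries, 4 groups of 3, grouped by their titles. Per the labels' protocols RNA was extracted with Trizol and libraries made with a stranded KAPA kit, and per the submitters' processing notes the build was GRCm38. The authors deposited FPKM, per the file headers, in tables of 11736 genes and 21202 transcripts. The sources used here do not give the aligner, quantification tool or annotation release. The files hold no counts, so no count model was fitted and the precision set by depth is unknown beyond relative terms.

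Values were tested as log2(FPKM + 1), with genes at 1 FPKM or more in at least 3 libraries, by limma 3.58.1 (R 4.3.3) with moderated, trended statistics over all 12 libraries, in 6 comparisons at a Benjamini-Hochberg adjusted p of 0.05. The procedure was tested on simulated data. Exact tests used scipy 1.17.1, tables pandas 2.3.3, figures matplotlib 3.10.9, Python 3.11.15, and copies blastn 2.17.0 on GENCODE M21 transcripts (at least 95% identity over at least 50% of a transcript). Of the 70 members, 65 identifiers were in GENCODE M21 with their version; promoters are from RefSeq, with 58 of 69 symbols matched.

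The members, roles, paralog pairs and lists were chosen with earlier results of these data known. Named genes are, against control, the 10 risen and 5 fallen members with the smallest adjusted p (3 and 3 elsewhere), the highest and lowest member of each role, members of the pairs, and up to 4 genes of each further list. Sec61b, Sec13, Lman1, Copb1, Srp14, Srp72, Spcs1, Spcs2, Tmed2, Tmed10 and those in the transcript results outside this rule were chosen after their values were seen. The alternatives were other pseudocounts (0.1, 5), other filters (none, 5 FPKM), 3 scalings (quantile normalization, centring on library medians, rescaling with the 52 genes over 0.2% of listed FPKM left out), fits of the compared groups alone, a replicate block and each library left out. Summed transcript values and ESS library 3 as the lone ESS library were added after seeing the data.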

Additional observations from a re-analysis of the deposited data

How the results depend on the processing

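Counts of members called moved most with the scaling and with the libraries used. Under quantile normalization, centred medians and rescaling, the rises in NOD against control were 10, 12 and 11 at 8 weeks and 14, 15 and 18 at 12 weeks, and the falls at 12 weeks 5, 5 and 5. ESS against NOD at 12 weeks then gave 7, 7 and 6 higher and 6, 4 and 5 lower members, and ESS against NOD at 8 weeks 4 lower with centred medians. With the compared groups alone, 2 members rose at 8 weeks and 7 fell at 12 weeks in NOD against control, and 1 was lower in ESS than in NOD at 8 weeks, as with a pseudocount of 0.1, a filter at 5 FPKM or transcript values summed; the last also left 1 lower against NOD at 12 weeks. With ESS library 3 as the lone ESS library, 3 members rose in NOD at 12 weeks against control and 5 were higher in ESS than in NOD at 12 weeks; that sample is assumed to vary as the others do. Leaving out each library in turn gave 0 to 1 rises (1 without control library 2) and 0 falls in ESS against control, 2 to 5 rises and 5 to 9 falls in NOD at 8 weeks, 1 to 6 rises (1 without NOD library 1, 2 without control library 1 or 3) and 5 to 14 falls at 12 weeks, 0 and 0 between the NOD ages, 6 to 9 higher and 1 to 2 lower in ESS than in NOD at 8 weeks, and 7 to 17 higher and 1 to 3 lower than at 12 weeks. The number of paralog pairs that passed was 0 in each alternative run. With a control library left out the smallest exact p is 0.0714, so 0 was fixed there and says nothing about stability. In the other runs too, a pair could pass only if several others reached the smallest p, so 0 says little there. Among named genes 2 changed direction: Sec63 in NOD at 12 weeks against control, -0.04 with transcript values summed, and Ddost in ESS against NOD at 12 weeks, -0.23 after quantile normalization. The causes were not tested.

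The replicate numbers do not pair the samples: deviations of same-numbered libraries of different groups correlated at -0.10 to 0.20 (18 pairs), and those of differently numbered ones at -0.14 to 0.14 (36 pairs). With the replicate block, 6 members rose and 8 fell in NOD at 8 weeks and 7 and 11 at 12 weeks. Depth is known in rough relative terms alone, which leaves the precision of low members such as Tmed1, Tmed8 and Sec61a2 unknown beyond the spread of 3 libraries.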
